A study of Mus musculus with 7 samples.

Results

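The 8 genes described here are known from the urothelium, the stratified epithelium that lines the renal pelvis and covers part of the papilla, and were read in each kidney library as a measure of the tissue it contained. They were taken by symbol from the gene table, and all 8 were among its 17537 genes. The 5 uroplakins were Upk1a, Upk1b, Upk2, Upk3a and Upk3b, and the 3 keratins were Krt5, Krt7 and Krt15. All 8 had at least 1 CPM in at least 2 libraries and were therefore among the 13976 genes tested. CPM here is the read count of a gene scaled to a common library total after TMM normalization, which corrects for differences in library composition.

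Sequencing of polyA RNA covered 7 renal tissue libraries of C57BL/6 mice. Nondiabetic controls that received sodium citrate (C) gave 3 libraries, replicates 2, 8 and 9. Mice made hyperglycemic with streptozotocin, which destroys the insulin-producing beta cells and was injected at 60 mg/kg on 5 days, gave 2 libraries (DM-22, replicates 1 and 2) after 22 weeks. Mice that received streptozotocin in the same way and, after 16 weeks, 6 weeks of the SGLT2 inhibitor dapagliflozin (25 mg/kg, by drinking water) gave the other 2 (DM+SGLT2i, replicates 1 and 2). Dapagliflozin blocks glucose reabsorption in the proximal tubule. The labels describe male mice of 8 to 10 weeks, whereas the study's methods describe males and females of 8 weeks. Both are ages at the start of the experiment, which lasted 22 weeks, and not at the time of sampling. The labels name no region of the kidney and no individual animal, so that p-values measure only the spread between these samples, which may be technical. The libraries held 46456125 to 56541594 reads on the genes of the table, and 1 read corresponded to 0.0180 to 0.0231 CPM.

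Uroplakins are membrane proteins of the umbrella cells that face the urine. They assemble into rigid plaques, in which UPK1A pairs with UPK2 and UPK1B pairs with UPK3A. Upk3b can replace Upk3a as a partner and is also known from mesothelium, the covering layer of internal organs. Krt5 and Krt15 are keratins of the basal cells of stratified epithelia, and Krt7 is a keratin of simple and ductal epithelia that also occurs in the urothelium and the collecting duct.

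The uroplakins and Krt5 differed widely between libraries of the same group. Summed over the 5 uroplakins, the level was 62.7, 5.94 and 4.40 CPM in C replicates 2, 8 and 9, 27.4 and 1.85 CPM in DM-22 replicates 1 and 2, and 113 and 8.02 CPM in DM+SGLT2i replicates 1 and 2. These sums rested on 3424, 282, 206, 1521, 80, 5795 and 444 reads. Each group thus held 1 library with a high level, namely C replicate 2, DM-22 replicate 1 and DM+SGLT2i replicate 1, beside libraries with a low level. In bulk RNA, fewer cells of a type and less RNA per cell cannot be told apart.

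**Figure D1:**
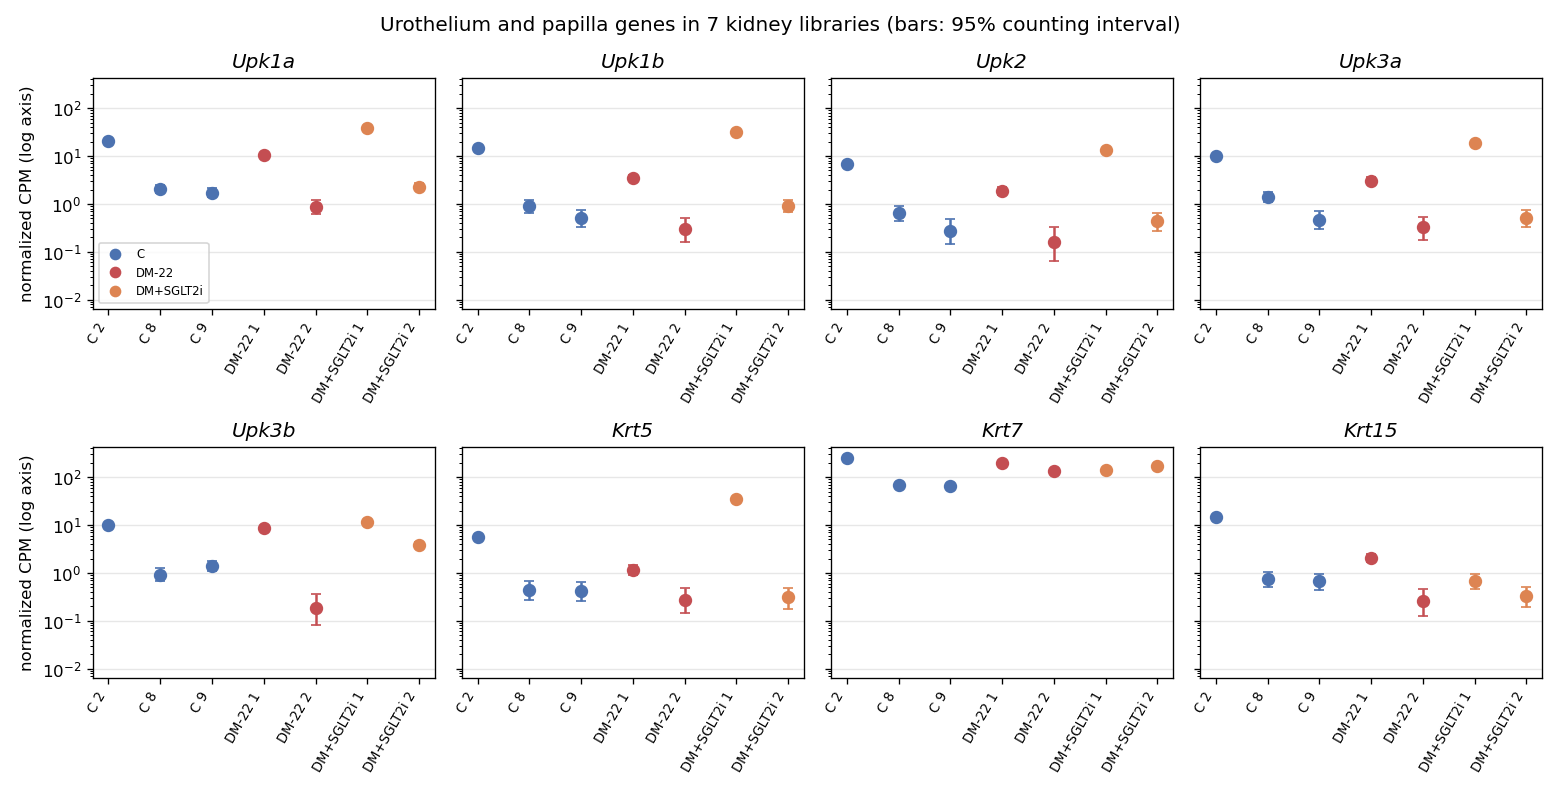
Level of each of the 8 genes in each library (normalized CPM, log axis), with the 3 groups in different colors and bars for the exact 95% Poisson interval, which covers counting error only. For the 5 uroplakins and Krt5, C replicate 2, DM-22 replicate 1 and DM+SGLT2i replicate 1 lie above the other 4 libraries; Krt7 stays between 65.1 and 249 CPM, and Krt15 is highest in C replicate 2.

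Levels are given below in the order C replicates 2, 8 and 9, DM-22 replicates 1 and 2, DM+SGLT2i replicates 1 and 2. Upk1a (chr7:30603092-30612847 on the minus strand of GRCm38), a tetraspanin and the partner of UPK2, measured 20.7, 2.04, 1.73, 10.3, 0.879, 37.8 and 2.31 CPM. The highest library exceeded the lowest 43.0-fold. Upk2 (chr9:44452715-44454976, minus strand), which encodes the small single-span partner of UPK1A, measured 6.82, 0.653, 0.278, 1.85, 0.162, 13.4 and 0.434 CPM, a range of 83.1-fold. Its lowest value, in DM-22 replicate 2, came from 7 reads and had an exact 95% Poisson interval of 0.0651 to 0.334 CPM. Both genes were high in the same 3 libraries, and the ranges of the 3 groups overlapped.

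Upk1b (chr16:38773184-38800328, minus strand), the tetraspanin that pairs with the UPK3 proteins, measured 14.9, 0.905, 0.513, 3.51, 0.301, 31.8 and 0.903 CPM, a range of 106-fold. Upk3a (chr15:85017141-85022547, plus strand), a single-span partner of UPK1B, measured 10.1, 1.41, 0.470, 3.08, 0.324, 18.7 and 0.506 CPM, a range of 57.7-fold. The order of the 3 high libraries was again DM+SGLT2i replicate 1, C replicate 2 and DM-22 replicate 1. Upk3b (chr5:136038496-136046487, plus strand), the alternative partner, measured 10.3, 0.926, 1.41, 8.66, 0.185, 11.8 and 3.87 CPM, a range of 63.6-fold. Its 3 high libraries were closer to each other than for the other uroplakins, and DM+SGLT2i replicate 2 stood above the remaining low libraries. Groups overlapped for all 3 genes.

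Among the uroplakins, Upk3b followed the others least closely. Its share of the summed uroplakin CPM was 16.4%, 15.6% and 32.0% in C replicates 2, 8 and 9, 31.6% and 10.0% in DM-22 replicates 1 and 2, and 10.4% and 48.2% in DM+SGLT2i replicates 1 and 2. Upk1a, in comparison, made up between 28.8% and 47.5% of the sum. The ratio of Upk3a to Upk3b ranged from 0.131 in DM+SGLT2i replicate 2 to 1.75 in DM-22 replicate 2, and the ratio of Upk1a to Upk1b from 1.19 in DM+SGLT2i replicate 1 to 3.38 in C replicate 9. Over the 7 libraries, Pearson correlations of log2(CPM + 0.5) between the 4 uroplakins other than Upk3b were 0.975 to 0.999 (6 pairs), and those of Upk3b with these 4 were 0.819 to 0.918. These correlations describe the libraries only, since all genes of a library share its tissue, depth and scaling.

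**Figure D2:**
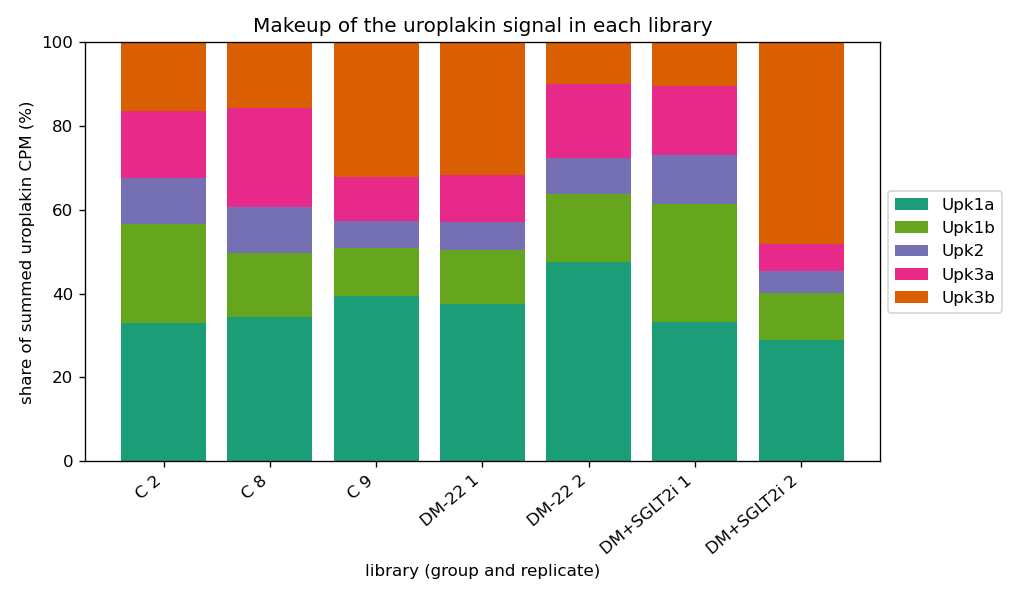
Share of each uroplakin in the summed uroplakin CPM of each library (stacked bars, percent, axis from 0). Upk3b takes 48.2% of the sum in DM+SGLT2i replicate 2 and 10.0% in DM-22 replicate 2, the latter from 8 reads of Upk3b and 80 reads in all.

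The basal-cell keratins parted in one library. Krt5 (chr15:101707070-101712898, minus strand) measured 5.64, 0.442, 0.427, 1.15, 0.278, 34.7 and 0.307 CPM, a range of 125-fold and the widest of the 8 genes. Krt15 (chr11:100131758-100135928, minus strand) measured 14.6, 0.737, 0.662, 2.03, 0.254, 0.665 and 0.325 CPM, a range of 57.3-fold. Krt15 was highest in C replicate 2 and next in DM-22 replicate 1. Krt5 was highest in DM+SGLT2i replicate 1, where Krt15 lay between its levels in C replicates 8 and 9. The groups overlapped for both genes. The ratio of Krt5 to Krt15 was 0.387, 0.600, 0.645, 0.566 and 1.09 in the C and DM-22 libraries, 52.2 in DM+SGLT2i replicate 1 and 0.944 in DM+SGLT2i replicate 2. Krt5 in DM+SGLT2i replicate 1 rested on 1774 reads and Krt15 on 34 reads, so that counting error does not span this difference. Of the 50-base windows of Krt5 transcripts, 8.52% occurred also in other genes, among them Krt6a and Krt6b, and for Krt15 the share was 0.640%. Krt6a itself stood at 0.724 CPM in DM+SGLT2i replicate 1. Krt14, the usual partner keratin of Krt5, stood at 0.352 CPM there and at most 0.211 CPM in the other libraries.

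Krt7 (chr15:101411043-101430313, plus strand) measured 249, 67.5, 65.1, 200.4, 131, 144 and 174 CPM. With a range of 3.82-fold it varied least of the 8 genes, and its highest and lowest libraries were both controls. All 4 diabetic libraries lay between C replicate 8 and C replicate 2. Pearson correlations of Krt7 with the 5 uroplakins were 0.476 to 0.663, those of Krt15 were 0.559 to 0.586, and those of Krt5 were 0.734 to 0.964. Krt7 and Krt5 lie 276756 bases apart on chromosome 15. Of the uroplakin windows of 50 bases 0% occurred in another gene, and of the Krt7 windows 0.296%.

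Levels can be compared between genes only per length. Divided by exon length in kilobases, the median level over the 7 libraries was 20.5 CPM per kb for Krt7, 1.63 for Upk1a, 1.29 for Upk3a, 1.10 for Upk3b, 0.603 for Upk2, 0.433 for Upk1b, 0.377 for Krt15 and 0.201 for Krt5. Upk1a exceeded Upk3a in 7 of 7 libraries, and Krt7 exceeded Upk1a in 6 of 7, the exception being DM+SGLT2i replicate 1. This exception depends on the annotated length of Krt7. Exon length counted every base of any annotated exon, 7049 for Krt7 and 2197 for Krt5, and a gene whose transcripts use fewer bases is understated. The neighbours Upk3b and Upk2, Upk2 and Upk1b, Upk1b and Krt15, and Krt15 and Krt5 differed by less than the SD of their log2 ratio over the libraries.

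Promoters are shown for 3 genes because the uroplakins varied together and Krt7 varied least. RefSeq promoter sequences (GRCm38.p6) were at hand for 5 of the 8 genes, namely Upk1a, Upk3a, Upk3b, Krt5 and Krt7. The 250 bases before the RefSeq start are printed 5′ to 3′ on the gene's strand, at chr7:30612735-30612984 (minus) for Upk1a, chr15:85016891-85017140 (plus) for Upk3a and chr15:101412153-101412402 (plus) for Krt7. Capitals mark the motifs found on either strand, which were AGATAA (bound by GATA factors) and GGGCGG (the GC box).
Upk1a: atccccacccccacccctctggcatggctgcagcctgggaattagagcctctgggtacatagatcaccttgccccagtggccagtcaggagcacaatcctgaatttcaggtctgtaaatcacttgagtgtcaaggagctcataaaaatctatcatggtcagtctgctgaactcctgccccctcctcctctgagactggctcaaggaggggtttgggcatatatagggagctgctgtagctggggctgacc
Upk3a: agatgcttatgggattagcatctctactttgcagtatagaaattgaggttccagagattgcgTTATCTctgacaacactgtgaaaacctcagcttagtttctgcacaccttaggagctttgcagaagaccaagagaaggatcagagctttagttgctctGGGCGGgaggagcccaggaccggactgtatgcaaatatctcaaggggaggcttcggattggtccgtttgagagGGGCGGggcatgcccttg
Krt7: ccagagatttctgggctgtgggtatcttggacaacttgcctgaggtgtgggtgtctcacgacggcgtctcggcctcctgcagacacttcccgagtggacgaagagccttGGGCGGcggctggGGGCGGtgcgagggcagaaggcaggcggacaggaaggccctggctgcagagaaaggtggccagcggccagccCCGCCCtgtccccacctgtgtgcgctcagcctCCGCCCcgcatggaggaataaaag
The search covered AACCNGTT (grainyhead-like factors), TGANTCA (AP-1), AGATAA (bound by GATA factors), GGGCGG (the GC box) and TATAAA (the TATA box) on both strands, and no matches overlapped each other. Upk3a held 1 match to AGATAA and 2 to GGGCGG, Krt7 held 4 matches to GGGCGG, and Upk1a, Upk3b and Krt5 held 0 of any of the 5 motifs. Of 32851 RefSeq promoter windows of the same length, 1.79%, 6.75%, 9.99%, 32.7% and 12.4% held these motifs in the order given. GC content was 66% with 16 CpG sites in the Krt7 window, 54.4% with 0 CpG sites for Upk1a and 49.6% with 6 for Upk3a, against medians of 52.4% and 6 over all windows. A match is a description of letters and not of a bound site.

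The study compared diabetic with control mice to find changes in gene expression, and treated with untreated diabetic mice to find which of them persist after glucose lowering. For the 8 genes, none of the 3 comparisons gave a difference beyond the spread between libraries. In DM-22 versus C, limma on log2(CPM + 0.5) gave 0 of the 8 genes past an adjusted p-value of 0.05, against 0% of all genes tested, and 0 of 8 at an unadjusted p-value under 0.05, against 4.47% of all genes. Mean levels of Upk1a were 8.14 ± 10.8 CPM in C (SD, n = 3) and 5.58 ± 6.65 CPM in DM-22 (SD, n = 2), with a log2 fold change of -0.36 (SE 1.52, 95% interval -4.00 to 3.29). Krt7 averaged 127 ± 105 CPM in C and 166 ± 48.8 CPM in DM-22, a log2 fold change of 0.65 (SE 0.59, 95% interval -0.75 to 2.06, adjusted p = 0.816 by limma). Log2 fold changes of the other 6 genes lay between -1.01 for Krt15 and -0.30 for Upk3b. The median over the 8 genes was -0.61, and that over all genes tested was 0.00. This direction rested on single libraries. Without C replicate 2 the median was 0.49, without DM-22 replicate 2 it was 0.46, and without DM-22 replicate 1 it was -1.76.

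DM+SGLT2i versus C likewise gave 0 of 8 genes past the adjusted threshold (0% of all genes) and 0 of 8 at an unadjusted p-value under 0.05 (1.08% of all genes) by limma. Krt5 averaged 2.17 ± 3.01 CPM in C (SD, n = 3) and 17.5 ± 24.3 CPM in DM+SGLT2i (SD, n = 2), with a log2 fold change of 1.61 (SE 1.62, 95% interval -2.27 to 5.48). Krt15 averaged 5.32 ± 8.01 CPM and 0.495 ± 0.241 CPM, with a log2 fold change of -1.51 (SE 1.18, 95% interval -4.32 to 1.31), which was -0.29 without C replicate 2. The uroplakins lay between 0.70 for Upk3a and 1.26 for Upk1b, and Krt7 at 0.62. The median of the 8 genes was 1.01, against -0.01 over all genes. Without DM+SGLT2i replicate 1 it was -1.0, without DM+SGLT2i replicate 2 it was 2.86, and without C replicates 2, 8 or 9, each in turn, it was 2.03, 0.60 and 0.41. Among the single genes, Upk3a was at -0.03 without C replicate 9.

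In DM+SGLT2i versus DM-22, 0 of 8 genes passed the adjusted threshold (0% of all genes) or an unadjusted p-value under 0.05 (3.91% of all genes) by limma. Upk1b averaged 1.91 ± 2.27 CPM in DM-22 and 16.3 ± 21.8 CPM in DM+SGLT2i (SD, n = 2 each). Its log2 fold change was 1.91 (SE 1.84, 95% interval -2.50 to 6.32). Krt5 had a log2 fold change of 2.23 (95% interval -2.01 to 6.48) and Krt7 of -0.03 (95% interval -1.57 to 1.51). The median of the 8 genes was 1.48, against 0.00 over all genes. It was -0.44 without DM+SGLT2i replicate 1, 3.40 without DM+SGLT2i replicate 2, 0.12 without DM-22 replicate 2 and 2.61 without DM-22 replicate 1. The 3 comparisons share libraries and are not independent of each other. Intervals this wide do not show that the groups were alike.

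**Figure D3:**
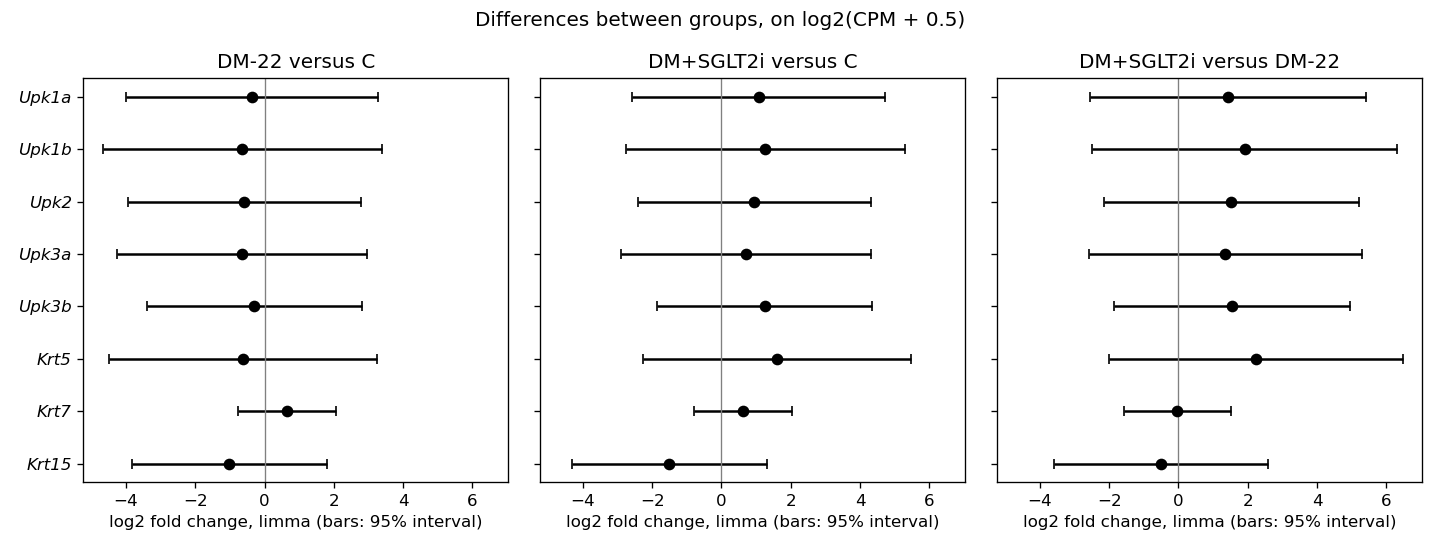
Log2 fold change of each gene in the 3 comparisons, on the log2(CPM + 0.5) scale from limma, with bars for the 95% interval. Every interval includes 0, and those of Krt7 are the narrowest, between -1.57 and 2.06.

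Most of the variation in these genes lay within groups. Differences between group means accounted for 9.46% (Upk3a) to 21.9% (Krt15) of the variance on the log2 scale, with a median of 16.1%, whereas the median over the 13976 genes was 29.7%. The residual SD within groups had a median of 2.03 log2 units in the 8 genes and 0.256 over all genes, and was highest for Upk1b (2.35) and lowest for Krt7 (0.81). All 8 genes overlapped between the groups in each comparison, while 20.1%, 12.3% and 41.5% of all genes tested did not overlap in DM-22 versus C, DM+SGLT2i versus C and DM+SGLT2i versus DM-22. Counting error was smaller than these spreads. In 23 of 24 pairs of a gene and a group, the 95% Poisson intervals of the highest and the lowest library did not touch, the exception being Krt15 in DM+SGLT2i.

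Other urothelial genes were read from a separate list of 18, of which 15 were in the table. Krt13, Krt4 and Krt17 were not listed. Of the 15, 11 were highest in DM+SGLT2i replicate 1 and 3 in C replicate 2, where 10.8% and 16.4% of all genes tested were highest. The 3 most abundant, Cldn4 (a tight junction claudin), Elf3 (an epithelial transcription factor) and Gata3 (a transcription factor of urothelium and collecting duct), varied less than the uroplakins, with 13.9 to 53.3, 15.1 to 40.2 and 14.4 to 27.2 CPM. The genes of this list that follow were named after their values were seen. Psca, a surface antigen of urothelium, measured 24.7, 1.07, 0.940, 4.54, 0.347, 25.9 and 4.55 CPM, and the umbrella-cell keratin Krt20 measured 3.65, 0.0632, 0.150, 0.522, 0.416, 9.90 and 1.35 CPM. Both were highest in DM+SGLT2i replicate 1 and C replicate 2 like the uroplakins, but neither was higher in DM-22 replicate 1 than in DM+SGLT2i replicate 2. Snx31, a sorting nexin known to bind uroplakins, was lowest in DM-22 replicate 1 (7.45 CPM) and highest in DM+SGLT2i replicate 1 (21.6 CPM), and Krt23 was highest in C replicate 2 (2.36 CPM). The basal-cell transcription factor Trp63 was highest in DM+SGLT2i replicate 1, at 7.42 CPM against 0.439 to 2.31 CPM elsewhere, as was Ly6d, a surface protein of stratified epithelia, at 20.4 CPM against 0.506 to 2.44 CPM. In DM-22 replicate 1, Trp63 (1.22 CPM, 68 reads) and Ly6d (1.10 CPM, 61 reads) were close to their levels in C replicate 9, unlike the uroplakins. Those levels were 1.32 CPM (62 reads) and 1.20 CPM (56 reads). Of the 11 listed genes that were tested, 0 passed the threshold in any comparison, and 0 had an unadjusted p-value under 0.05.

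The simple epithelial keratins Krt8, Krt18 and Krt19 differed in how far they resembled the uroplakins. Krt19 measured 21.4, 2.25, 2.07, 5.42, 1.69, 43.9 and 9.01 CPM, with its 2 highest libraries the same as those of the uroplakins. Krt18 ranged from 10.7 to 60.8 CPM, and Krt8, which tubules also express, from 102 to 172 CPM. In all 3 comparisons 0 of these 3 genes passed the threshold.

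The papillary genes shared part of the order of the uroplakins but not their highest library. Both sums were high in C replicate 2 and DM-22 replicate 1 and lowest in DM-22 replicate 2. Genes of the inner medulla and papilla, 6 of a list of 7, summed to 554, 174 and 204 CPM in C, 854 and 168 CPM in DM-22 and 272 and 459.5 CPM in DM+SGLT2i. Of the 6, 5 were highest in DM-22 replicate 1 and 1 in C replicate 2. The 3 most abundant were the small heat shock protein gene Cryab (45.9 to 365 CPM), the urea transporter gene Slc14a2 (2.84 to 267 CPM) and the aldose reductase gene Akr1b3 (48.2 to 91.3 CPM). In DM+SGLT2i replicate 1, where the uroplakin sum was highest, the papilla sum was the median of the 7 libraries, 272 CPM. The 5 uroplakins and Krt5 thus had their highest library in common with most other urothelial genes and not with the papillary ones, while Krt7 and Krt15 were highest in C replicate 2. In DM-22 replicate 2, where the uroplakins summed to 1.85 CPM, Krt7 stood at 131 CPM, so that its level did not follow theirs. Collecting duct genes summed to 1077, 531 and 529 CPM in C, 1234 and 735 CPM in DM-22 and 571 and 1048 CPM in DM+SGLT2i, and thick ascending limb genes to 6408, 4173 and 3687 CPM, 13365 and 3519 CPM, and 4819 and 7260 CPM. Both sums were high in DM+SGLT2i replicate 2, where the uroplakins were low, besides C replicate 2 and DM-22 replicate 1. The same 3 libraries had the highest Krt7 levels, and C replicates 8 and 9 had the lowest Krt7 levels and collecting duct sums. Proximal tubule genes of the cortex summed to 5472 and 5721 CPM in C replicate 2 and DM-22 replicate 1 and to 9424 to 15279 CPM elsewhere.

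Markers of other tissues moved with the level in DM+SGLT2i replicate 1. All 9 smooth muscle genes of the list were highest there, and their sum was 889 CPM against 205 to 342 CPM in the other 6 libraries. Its 3 most abundant genes were Smtn (117 CPM there, 99.4 to 115 elsewhere), Acta2 (212 CPM, 23.1 to 75.7 elsewhere) and Tagln (138 CPM, 21.8 to 82.7 elsewhere). The visceral actin gene Actg2, named after its values were seen, stood at 67.0 CPM against 0.0925 to 0.586 CPM. All 5 adipose genes were highest in the same library, with a sum of 1089 CPM against 34.1 to 79.7 CPM. Cfd, which encodes the adipokine adipsin, was at 687 CPM there and at 0.495 to 17.2 CPM elsewhere, and the fatty acid binding protein gene Fabp4 was at 194 CPM against 33.0 to 78.1 CPM. In C replicate 2 and DM-22 replicate 1, which had the next highest uroplakin levels, smooth muscle genes summed to 342 and 281 CPM and adipose genes to 54.6 and 79.7 CPM. The part of these tissues in the differences between groups was not tested.

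Upk3b was set beside mesothelial markers because of its known expression there. Of 5 markers, Lrrn4 and Muc16 were not listed. Msln measured 3.17, 0.253, 0.406, 0.792, 0.0231, 0.372 and 0.416 CPM, and like Upk3b it was lowest in DM-22 replicate 2, where it had 1 read. Nkain4 stayed between 0.192 and 1.23 CPM. The most abundant, Gpm6a, was highest in DM-22 replicate 1 (223 CPM) and lowest in DM-22 replicate 2 (84.2 CPM). In DM+SGLT2i replicate 2, which had the largest Upk3b share, Msln stood at 0.416 CPM, close to the 0.406 CPM of C replicate 9. Markers of epidermis were low. Krt1 and Krtdap were not listed, Lor (loricrin) stayed at 0.333 to 0.470 CPM, and the sum of the 4 listed genes lay between 6.34 and 11.5 CPM, at 9.45 CPM in DM+SGLT2i replicate 1 and 6.34 CPM in C replicate 2. The most abundant of them, Krt10, measured 4.09 CPM in DM+SGLT2i replicate 1 and 3.34 to 7.56 CPM elsewhere. Sbsn (suprabasin), the next most abundant, was highest in DM+SGLT2i replicate 1, at 4.91 CPM against 1.31 to 3.55 CPM elsewhere.

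**Figure D4:**
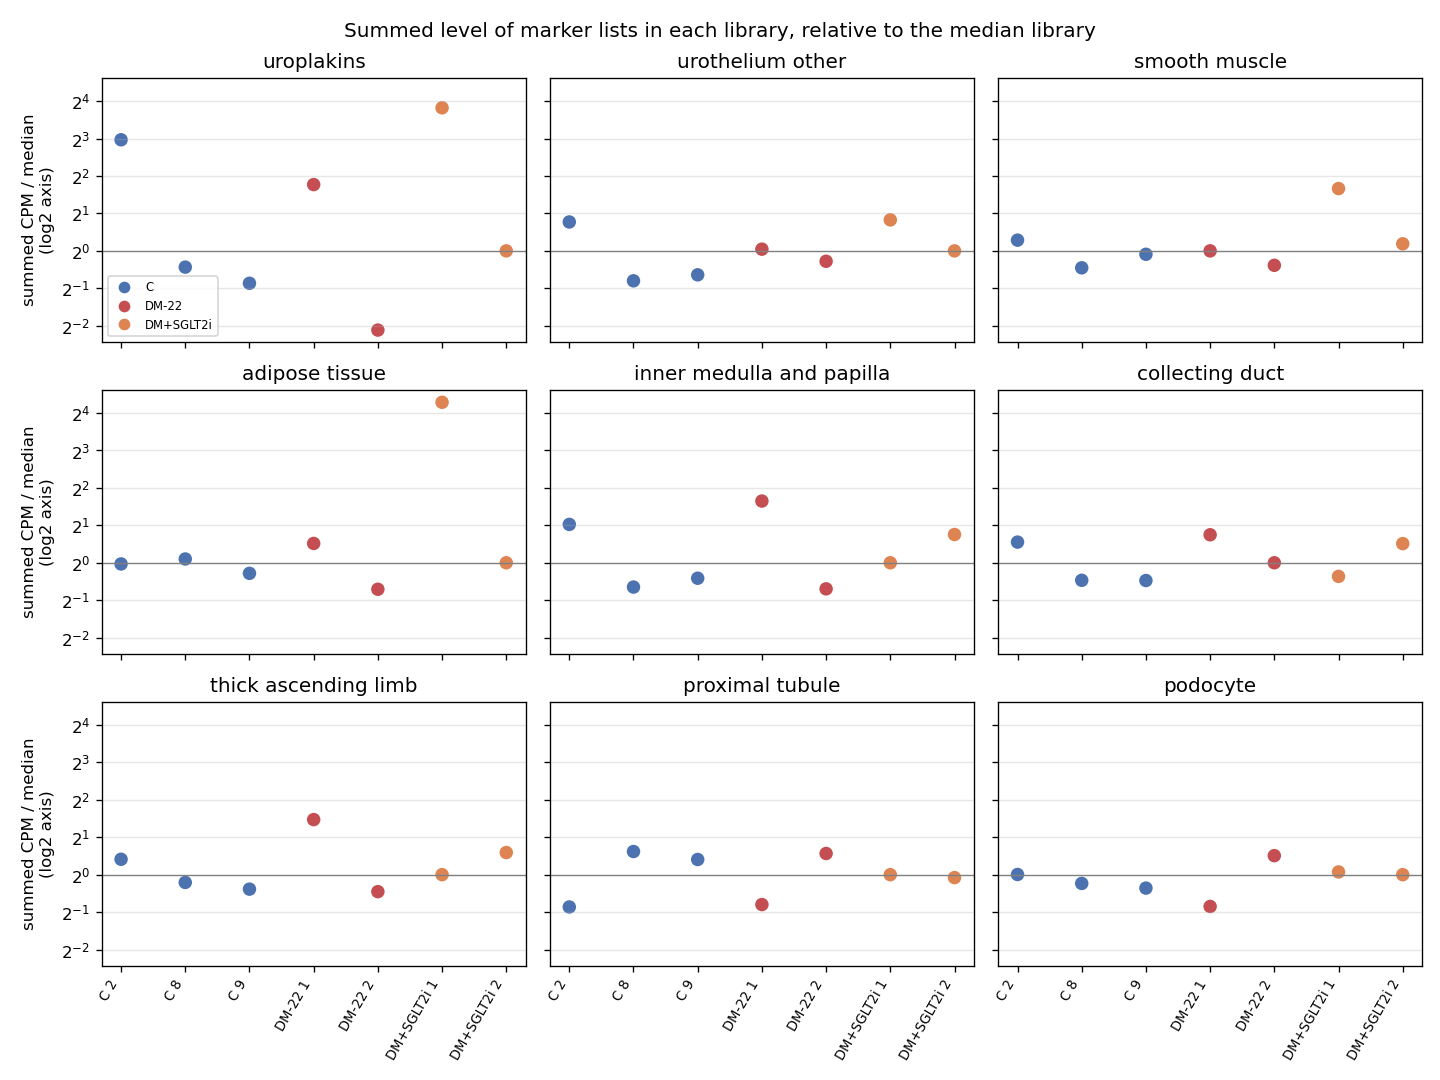
Summed CPM of each marker list in each library, divided by the median of the 7 libraries (log2 axis), with groups in different colors. The uroplakin sum reaches 14.1 times its median in DM+SGLT2i replicate 1, where the adipose sum reaches 19.5 times and the smooth muscle sum 3.17 times, while the inner medulla and papilla sum peaks in DM-22 replicate 1 at 3.14 times.

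Few of the genes tested had a pattern as close to that of the uroplakins. Against the mean log2(CPM + 0.5) of the 5 uroplakins, 33 genes, 0.236% of those tested, had a Pearson r over 0.95 across the 7 libraries, and 470 genes, 3.36%, had one over 0.8. Both counts were taken over all genes tested, including the 8 members and thus the 5 uroplakins that form this mean. Members aside, the closest were Nfe2l3 (a transcription factor of the NRF family) with r = 0.988, Ntm (a neural cell adhesion protein) with 0.983 and Cldn23 (a claudin) with 0.977. Xpnpep2, Sspn, Sprr1a, Trim62, Eef2k, Trim29 and Scarb2 followed with 0.973 to 0.964. Without the 2 libraries farthest from the median uroplakin level, r was 0.842 to 0.966 for the 10 genes. The 10 genes had been chosen by their r over all 7 libraries, so these values are no separate check. They differed in level and range. Sprr1a, a cornified envelope protein of stratified epithelia, measured 35.5, 1.45, 1.30, 6.35, 1.60, 76.0 and 3.99 CPM, a pattern of 3 high libraries like that of Upk1a. Trim29, a protein of stratified epithelia, ranged from 0.105 to 5.13 CPM, and Scarb2, a lysosomal membrane protein made in most cells, only from 32.5 to 47.6 CPM. With so few libraries, likeness of this kind is a description and carries no test.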

How the data were processed

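RNA from 7 samples of mouse renal tissue was sequenced as polyA-selected, strand-specific libraries, and groups were taken from the sample labels. The authors deposited log2 values for 17537 genes, which are TMM-normalized CPM with a constant added (floor -4.66). Per the labels, the submitters' processing notes name Trim Galore, STAR, edgeR and mm10; versions, the counting method and the annotation are not given in the sources used here. CPM were recovered by subtracting the floor on the linear scale, and the reads behind them were whole for 100% of values in every library (tolerance 0.05 reads). All 7 value columns were used.

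The design assumed CPM; since the values are logarithms, they were tested on log2(CPM + 0.5) with limma 3.58.1 in R 4.3.3 (trend), with the 3 groups fitted together, for the 13976 genes that reached 1 CPM in 2 or more libraries. P-values are two-sided and Benjamini-Hochberg adjusted over these genes, with a threshold of 0.05. Fold changes on this scale understate those of low genes. Poisson intervals are exact, at 95%, and cover counting error only. Alternatives were other pseudocounts, no filter, scaling to total reads, only the 2 groups compared, each library left out in turn and a replicate block. The test was checked on simulated data in which every gene had the same spread, the median over all genes tested (0.256 log2 units). The 8 genes had a median residual SD of 2.03, so this check does not cover genes with their spread. Genes, lengths and positions are from GENCODE M21 on GRCm38, in which all 8 symbols matched, and other computations used Python 3.11.15.

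Genes named in the text are the 8 members, the most abundant genes of 13 marker lists and the 10 genes most correlated with the uroplakins. Other list genes (Psca, Krt20, Trp63, Ly6d, Snx31, Krt23, Krt14, Krt6a, Actg2, Msln, Nkain4, Lor and Sbsn) were added to the text after their values were seen. Members and lists were chosen with earlier results of these data known. Of the 80 genes in the lists, 72 were listed; 1 gene of the design's inner medulla list is not reported here. Podocyte genes summed to 295 to 756 CPM, distal convoluted tubule genes to 356 to 1602 CPM and proximal straight tubule genes to 449 to 1195 CPM, and 0 genes of any list passed the adjusted threshold in limma. Urothelium was read in bulk tissue, and no region of the kidney was assigned to a library.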

Additional observations from a re-analysis of the deposited data

How the results depend on the processing

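No gene of the 8 passed the adjusted threshold under any alternative run. The lowest adjusted p-values by limma were those of Krt7 without C replicate 2, at 0.0826 for DM-22 versus C (log2 fold change 1.28) and 0.0987 for DM+SGLT2i versus C (1.25). Without that library, 2 and 17 of all genes passed, against 0 in the fits as reported, and leaving out each library in turn gave 0 to 2 and 0 to 17. Directions of most genes rested on single libraries. Leaving out 1 library reversed the sign of a gene's fold change in 28 cases and kept it in 140. The 140 include all fits without a library of the group not compared, which cannot change the fold change. These counts therefore overstate how stable the directions were. Scaling to total reads turned Krt7 in DM+SGLT2i versus DM-22 to 0.074. With each library left out, log2 fold changes in DM-22 versus C ran from -1.84 to 1.13 for Upk1a and -1.81 to 0.59 for Upk1b. They ran from -1.50 to 0.40 for Upk2, -1.71 to 0.41 for Upk3a and -2.17 to 1.57 for Upk3b. For the keratins they ran from -1.17 to 0.28 for Krt5, -1.89 to 0.21 for Krt15 and, with the sign kept, 0.32 to 1.28 for Krt7. In DM+SGLT2i versus C they ran from -0.81 to 2.96 for Upk1a, -1.0 to 3.53 for Upk1b, -1.0 to 2.90 for Upk2, -1.42 to 2.83 for Upk3a, -1.12 to 4.33 for Krt5, and, with the sign kept, 0.50 to 2.15 for Upk3b, 0.29 to 1.25 for Krt7 and -2.14 to -0.29 for Krt15. In DM+SGLT2i versus DM-22 they ran from -0.45 to 3.31 for Upk1a, -0.35 to 4.17 for Upk1b, -0.42 to 3.48 for Upk2, -0.77 to 3.48 for Upk3a, -0.32 to 3.42 for Upk3b, -0.49 to 4.96 for Krt5, -0.34 to 0.27 for Krt7 and -1.37 to 0.38 for Krt15. A lone library of a group was assumed to vary like the other groups. The cause was not tested. A fit with the replicate block was possible only between the 4 diabetic libraries, where it called 0 genes (696 at an unadjusted p-value under 0.05, against 703 in the same libraries without it). Under it Upk1a and Upk1b had unadjusted p-values of 0.00975 and 0.0383, against 0.391 and 0.291 without it, both with an adjusted p = 0.734 by limma. Over all genes, the deviations of same-numbered libraries from their group means had a correlation of -0.0412. With 2 libraries per group the 2 pairs mirror each other, so this value cannot decide whether the numbers mark pairs. The uroplakins and Krt5 were higher in replicate 1 than in replicate 2 of both diabetic groups. Since the labels tie the numbers to no shared litter or batch, the libraries were not treated as pairs. The levels of 7 to 14 reads in DM-22 replicate 2 limit what can be said of the lowest values of Upk1b, Upk2, Upk3a, Upk3b, Krt5 and Krt15.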
